A study of Mus musculus with 8 samples.

Results

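The comparison described here is the effect of a Zfp462 knockout on day 3 embryoid bodies (EBs), floating aggregates in which embryonic stem cells (ESCs) leave the stem cell state. It rests on 4 of the 8 libraries of the study, the 2 from control EBs and the 2 from knockout EBs, chosen by their labels. All cells derive from R1, a mouse ESC line. Control cells are labelled wild type, and knockout cells come from stable ESC lines with a Zfp462 knockout, with no further treatment named in any group. ESCs grew on gelatin in serum medium with leukaemia inhibitory factor (LIF), and for EBs they were dissociated and kept in Petri dishes for 3 days. The other 4 libraries, 2 from control and 2 from knockout ESCs, entered the statistical fit and are used below to set the EB values beside those of undifferentiated cells. RNA was poly(A)-selected, and the labels name no separate clones or cultures behind the 2 libraries of each group, so the p-values below speak for the spread between these 8 samples alone, which may be technical.

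Zfp462 encodes a large zinc finger protein of the nucleus. When ESCs leave the naive state they switch off naive pluripotency factors and pass through a formative state related to the early post-implantation epiblast, which expresses genes such as Fgf5 and Dnmt3b. Part of an EB can instead become primitive endoderm, the lineage that lines the blastocyst cavity and later forms the yolk sac, and that secretes a basement membrane of laminin and collagen IV. A small fraction of cultured ESCs passes through a state that shares transcripts with the 2-cell embryo, among them the Zscan4 and Usp17l families.

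The table held 55401 genes, of which 17125 had enough counts to be tested. Library totals ranged from 12119763 to 16228426 counts. The labelled state was checked against its markers. Fgf5, Otx2, Pou3f1 and Dnmt3b summed to 1734 and 1836 CPM (counts scaled to the library total) in the control EB libraries and 1102 and 1079 CPM in the knockout ones, against 300 to 360 CPM in the ESC libraries, and the 5 ESC markers Pou5f1, Sox2, Nanog, Zfp42 and Esrrb summed to between 1397 and 1476 CPM in the 4 EB libraries and between 2021 and 3160 CPM in ESCs. The spread between replicates was uneven. The SD of the log2 difference between the replicates of a group was 0.263 in control and 0.365 in knockout EBs, against 0.190 in control and 0.409 in knockout ESCs, where that difference followed the GC content of the gene (correlation across 11328 genes 0.691).

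The first of the knockout EB libraries (replicate 1) contained liver transcripts. The 40 hepatocyte markers summed to 2860 CPM in this library, to 60.8 CPM in knockout EB replicate 2, to 57.0 and 81.6 CPM in the control EBs and to between 54.5 and 62.6 CPM in the ESCs. All 40 had at least 10 counts there, against 8 to 17 in the other libraries. Of serum albumin mRNA (Alb), knockout EB replicate 1 had 1335 CPM and knockout EB replicate 2 had 0, while control EB replicates 1 and 2 had 1.59 and 14.0 CPM. In control EB replicate 2 only 2 of the 40 markers had no counts. Apart from knockout EB replicate 1, where none was at 0, the other libraries had 13 to 17 markers at 0. A trace of the same transcripts in control EB replicate 2 was not tested. A panel of 12 genes that adult liver shares with yolk sac endoderm summed to 994.1 and 438.3 CPM in the knockout EBs and to 220.2 and 267.4 CPM in the control EBs. Their part in the results was not tested, except where values without replicate 1 are given. Each result was therefore asked to hold in both knockout libraries: both above or both below both controls, and within 2-fold of each other.

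**Figure D1:**
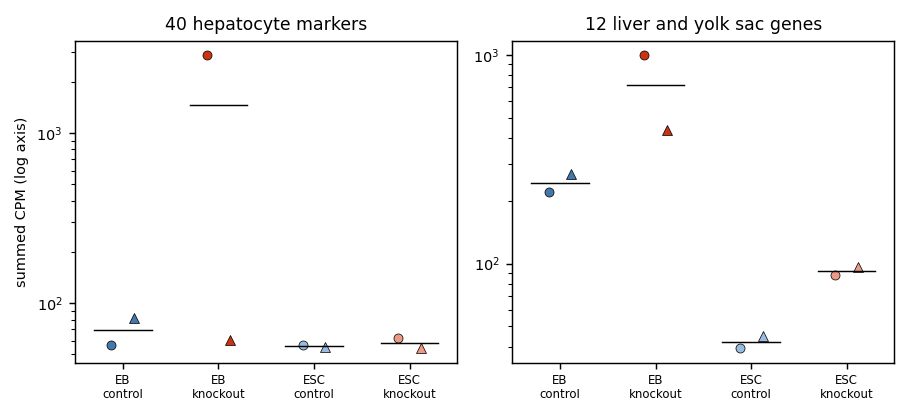
Summed CPM (log axis) of 40 hepatocyte markers and of 12 genes shared by liver and yolk sac, in each of the 8 libraries. Circles are replicate 1, triangles replicate 2 and lines group means; only knockout EB replicate 1 stands apart on the left, at 2860 CPM.

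In day 3 EBs, 814 genes were higher (4.75% of those tested) and 350 were lower (2.04%) in the knockout at an adjusted p below 0.05 in edgeR's quasi-likelihood test, 6.8% in either direction. Both knockout libraries agreed for 782 of the higher genes (4.57%) and 348 of the lower genes (2.03%). A separation of the libraries without a test is common in these data, since 29.3% of all genes lay higher and 29.1% lower by the agreement rule alone. Of all calls 69.9% were higher, but with each library's GC trend removed 1347 genes were higher and 1292 lower (51% higher), and with the 4 EB libraries fitted alone 1449 and 1271 (53.3%). Changes of at least 2-fold were found for 452 higher (2.64%) and 102 lower genes (0.596%). The 34 calls in which the knockout libraries disagreed included Bhmt, a hepatic methyltransferase, with 0 and 0.314 CPM in the control libraries and 47.6 and 0.837 CPM in the knockout libraries. Without knockout EB replicate 1 the counts were 350 higher and 60 lower, of which 344 and 60 were among the calls made with it. The counts depended on the other libraries as well: they were 196 and 40 without control EB replicate 1, 306 and 74 without control EB replicate 2, 564 and 79 without knockout EB replicate 2, and 439 to 1721 higher and 125 to 1466 lower when 1 ESC library was left out.

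**Figure D2:**
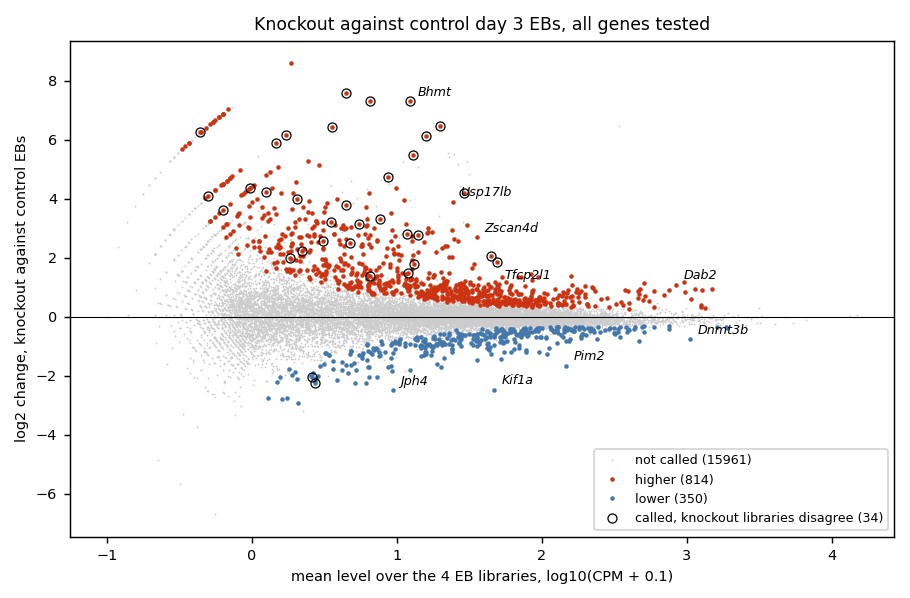
Log2 change in knockout against control day 3 EBs for each of the 17125 genes tested, against its mean level over the 4 EB libraries as log10(CPM + 0.1). Red points are the 814 higher genes, blue points the 350 lower genes, grey points genes that were not called, and open circles the 34 calls in which the 2 knockout libraries disagreed; the largest increases lie among genes of low level.

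Of 170 named genes called in EBs, 64 kept the call with any 1 of the 8 libraries left out; below, the library is given where a named gene lost it. The targeted gene, Zfp462 (ENSMUSG00000060206.11, mm10 chr4:54945048-55083563, plus strand), was still counted in the knockout. It had 153 and 130.3 CPM in the control libraries and 102 and 102 CPM in the knockout libraries, groups that did not overlap. The log2 change was -0.47 ± 0.10 (adjusted p = 0.0207), and the call did not hold without either control ESC library, control EB replicate 1 or either knockout EB library (adjusted p up to 0.212). No source used here gives the edited part of the gene, and counts over the whole gene do not check a short deletion.

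Of 21 tested members of multicopy families of the 2-cell-like state 19 were higher and none was lower, with a median log2 change of 2.77 against 0.00 over all genes tested, and both knockout libraries agreed for all 19. Without knockout EB replicate 1 there were 16 (median 2.80). Of 6 other genes of this state 5 were higher (median 1.84), among them Zfp352, Lmx1a and Sp110. Fewer were called when any 1 EB library was left out (median 1.80 without knockout EB replicate 1). The promoters of 4 Zscan4 and 3 Usp17l genes are shown because these genes, which moved together here, are nearly the same within each family upstream of their starts. Promoters of other members were not compared. Each stretch of 106 bases comes from RefSeq (GRCm38.p6, the build also called mm10) and reads 5′ to 3′ on the gene's strand. Capitals mark the last TATAAA before the start of Zscan4d and of Usp17lb. In the other genes they mark the 6 bases aligned with it, which are TTTAAA in Usp17la. The stretches end 39, 5, 28 and 5 bases before the annotated starts of Zscan4d, Zscan4b, Zscan4c and Zscan4f. For Usp17lb, Usp17la and Usp17lc they end 5, 20 and 62 bases before. The capitals thus lie at unlike distances from the starts, and whether they act as a TATA box was not tested.
Zscan4d, chr7:11166188-11166293, minus strand: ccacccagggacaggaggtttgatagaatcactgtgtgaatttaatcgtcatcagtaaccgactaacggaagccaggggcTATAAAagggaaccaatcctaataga
Zscan4b, chr7:10905056-10905161, minus strand: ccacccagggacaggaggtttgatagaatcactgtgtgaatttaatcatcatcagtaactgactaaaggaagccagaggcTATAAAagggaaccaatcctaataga
Zscan4c, chr7:11005611-11005716, plus strand: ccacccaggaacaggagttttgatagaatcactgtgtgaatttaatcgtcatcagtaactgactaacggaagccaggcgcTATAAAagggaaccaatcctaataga
Zscan4f, chr7:11397804-11397909, plus strand: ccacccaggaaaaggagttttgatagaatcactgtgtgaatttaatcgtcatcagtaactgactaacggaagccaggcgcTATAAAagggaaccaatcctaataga
Usp17lb, chr7:104842589-104842694, minus strand: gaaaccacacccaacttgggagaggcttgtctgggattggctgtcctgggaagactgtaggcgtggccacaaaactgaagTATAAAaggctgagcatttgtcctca
Usp17la, chr7:104856890-104856995, plus strand: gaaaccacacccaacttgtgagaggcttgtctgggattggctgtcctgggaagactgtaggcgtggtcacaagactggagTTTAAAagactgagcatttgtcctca
Usp17lc, chr7:103416528-103416633, plus strand: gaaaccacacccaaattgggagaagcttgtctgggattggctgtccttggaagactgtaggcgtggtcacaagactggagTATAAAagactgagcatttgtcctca
Over this stretch Zscan4b and Zscan4c were each identical to Zscan4d at 102 of 106 bases (96.2%) and Zscan4f at 101 (95.3%), and Usp17la and Usp17lc were identical to Usp17lb at 100 (94.3%) and 99 (93.4%). The motif TATAAA, searched on both strands in the 250 bases before the start, was in 65 of 687 matched windows of the higher genes (9.46%), in 25 of 326 of the lower genes (7.67%), in 6.74% of those of all tested genes and in 12.4% of 32851 windows in the RefSeq table. Other motifs were looked at as well, and only this one is reported, so the match is a description of these letters.

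Usp17lb, one of a family of ubiquitin-specific proteases of early embryos, had 2.72 and 3.37 CPM in the control libraries and 44.8 and 45.4 CPM in the knockout libraries. Both knockout libraries lay far above both controls, and the log2 change was 3.89 ± 0.19 (adjusted p = 1.67e-05). Usp17lc went from 0.597 and 1.25 to 17.5 and 19.7 CPM (4.35 ± 0.28) and Usp17la from 2.12 and 2.59 to 18.9 and 22.4 CPM (3.14 ± 0.22). Zscan4d, a zinc finger gene of 2-cell embryos, had 10.5 and 8.39 CPM in control EBs against 57.1 and 65.9 CPM in knockout EBs (2.70 ± 0.19, adjusted p = 6.16e-05). The other Zscan4 genes named by the rule, Zscan4b, Zscan4c, Zscan4e and the annotated pseudogene Zscan4a, lay between 2.33 and 2.77, and Zscan4-ps2 and Zscan4-ps3 at 2.52 and 2.39. Zscan4f, which the naming rule did not pick, changed by 2.13 ± 0.23. These values are uncertain between copies: 85.5% of the 50-base windows of Zscan4c, 49.6% of those of Zscan4d and 44.7% of those of Usp17lc also occur in another gene, and no source used here says how such reads were assigned.

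The genes Tmem92, Pramel7 and Pramel6 share little or no sequence with other genes. Tmem92, a transmembrane protein gene with 1.93% of its windows in another gene, had 2.72 and 3.84 CPM in the control libraries and 20.9 and 23.1 CPM in the knockout libraries (2.75 ± 0.20, adjusted p = 6.16e-05). Pramel7 and Pramel6, members of a family expressed in early embryos, went from 0.464 and 1.25 to 9.56 and 12.7 CPM (3.72 ± 0.39) and from 1.92 and 1.02 to 11.5 and 12.9 CPM (3.02 ± 0.29), with 1.43% and 0% of windows shared. In all 3 genes the knockout libraries lay close to each other and far above the controls. Trim43a, a tripartite motif gene, went from 0.995 and 1.57 to 9.87 and 11.9 CPM (3.10 ± 0.30), but 45.8% of its windows also occur in another gene, as do 36.0% of those of Sp110, so both are uncertain between copies. The call of Zfp352, a zinc finger gene of 2-cell embryos, rested on 0.133 and 0 CPM in controls against 2.11 and 2.66 CPM and missed the threshold without control EB replicate 2 (adjusted p = 0.0504). That of Lmx1a was lost without control EB replicate 2 or either knockout EB library (adjusted p up to 0.0864), and that of Sp110 without either control ESC library, control EB replicate 1 or knockout EB replicate 1 (adjusted p up to 0.191).

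Called genes lay side by side in the genome at several places. There were 16 runs of at least 3 neighbouring tested genes that were all higher, with 61 genes in all, against 1 such run of lower genes with 3 (Trim35, Dpysl2 and Pnma2 on chromosome 14). Both Zscan4 runs are on chromosome 7 of mm10, with 5 genes at 10794242-11166159 and 6 at 11182400-11614112. The Usp17l genes formed runs of 3 at 103249737-103419880 and at 104768049-104862667 on the same chromosome, and Tmem92 began a run of 5 at 94777217-94846092 on chromosome 11. Copies that share reads are not independent of each other, so such a run can hold fewer separate measurements than genes. Genes below 1 CPM in control EBs numbered 2405, of which 191 were higher (7.94%) and none was lower, with a median log2 change of 0.624. Of 2400 genes above 100 CPM 71 were higher (2.96%) and 98 lower (4.08%), with a median of -0.084. The control level that sorts these genes also enters the change. A gene so low in control EBs can pass the count filter through a group where it is higher. The split therefore tilts by its making and gives no result about genes of low level.

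Naive pluripotency genes were higher in knockout EBs. Of 12 transcription factors of the naive state 6 were higher and none lower (median 0.46), and of 15 effector and surface genes 7 were higher and none lower (median 0.27). Without knockout EB replicate 1 these were 3 and 5, and over all 4 single EB libraries left out 2 to 3 and 4 to 6. With the GC trend of each library removed, the factors gave 8 higher and 0 lower, and the effector and surface genes 6 and 2. Tfcp2l1, a factor that sustains the naive network, had 32.8 and 30.2 CPM in the control libraries and 66.3 and 67.6 CPM in the knockout libraries (1.09 ± 0.10, adjusted p = 2.01e-04). In ESCs it had 377 and 393 CPM in controls and 285 and 320.0 CPM in the knockout, the opposite order. Tbx3, a T-box factor downstream of LIF, went from 39.9 and 36.8 to 97.4 and 97.9 CPM (1.35 ± 0.14), with the knockout libraries almost equal and above both controls. Tcl1, a co-activator of AKT kinase, went from 9.68 and 11.1 to 31.3 and 28.3 CPM (1.53 ± 0.12), with 73.4 and 71.6 CPM in control ESCs. Fbxo15, an F-box gene used as a reporter of the pluripotent state, went from 111 and 98.8 to 214 and 225 CPM (1.07 ± 0.12). Zfp57, which protects imprinted methylation, went from 232 and 211 to 338 and 345 CPM (0.62 ± 0.08), and Jam2, an adhesion molecule, from 78.8 and 71.6 to 131 and 129 CPM (0.79 ± 0.11). In none of these 6 genes did the knockout libraries overlap the controls. The calls of 3 other factors of this state did not hold in every fit with 1 library left out. Their log2 changes stayed above 0 in these fits, at 1.01 to 1.22 for Klf4, 0.28 to 0.55 for Nanog and 0.42 to 0.46 for Zfp42. Klf4 (1.11 ± 0.15) lost its call without control EB replicate 1 (adjusted p = 0.0631), and Nanog (0.41 ± 0.10, adjusted p = 0.0380) and Zfp42 (0.44 ± 0.09) lost theirs without any 1 of the 4 EB or the 2 control ESC libraries (adjusted p up to 0.231 and 0.202).

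Of 12 core pluripotency genes tested, none was higher and 2 were lower, Lin28a and Lin28b, RNA-binding proteins that block maturation of let-7 microRNAs (median of the list -0.31). Lin28a went from 392 and 372 to 263 and 255 CPM (-0.56 ± 0.08) and Lin28b from 50.5 and 60.7 to 30.7 and 28.8 CPM (-0.90 ± 0.14). Lin28a missed the threshold without control EB replicate 1 (adjusted p = 0.0673) and Lin28b without control EB replicate 2 (adjusted p = 0.0643). Pou5f1 (426 and 439 CPM in controls, 386 and 371 CPM in the knockout, log2 change -0.19 ± 0.10, adjusted p = 0.302) and Sox2 (-0.39 ± 0.13, adjusted p = 0.110) did not pass. With the GC trend of each library removed, 6 of the 12 core genes were lower and 0 higher. Removal of each library's GC trend brought Sox2 past the threshold (-0.45, adjusted p = 0.018), as did leaving out the low-count filter (adjusted p = 0.00222) and fitting the EB libraries alone (adjusted p = 0.00658), where Pou5f1 passed too (-0.18, adjusted p = 0.0395).

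**Figure D3:**
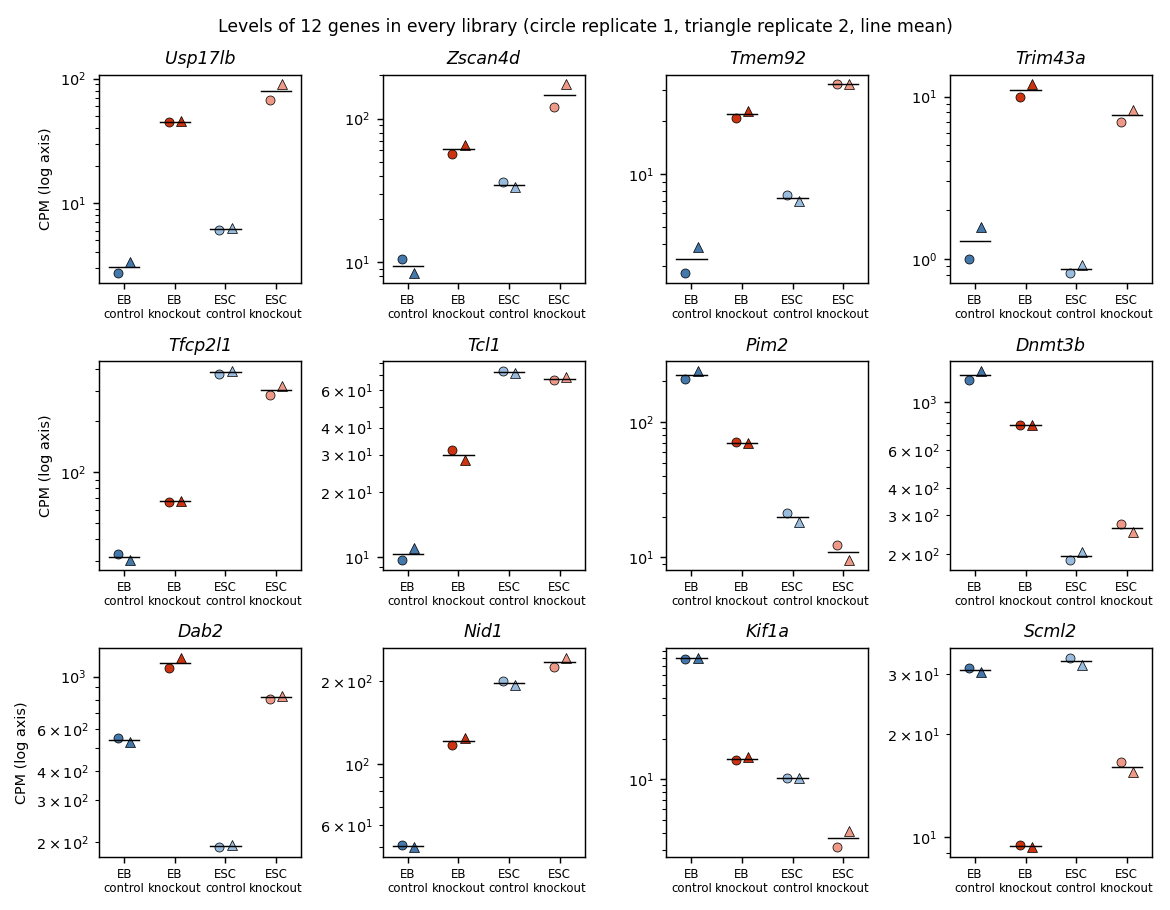
CPM (log axis) of 12 genes in the 8 libraries, in the order control EBs, knockout EBs, control ESCs and knockout ESCs, with circles for replicate 1, triangles for replicate 2 and lines for group means. In each panel the 2 knockout EB libraries lie together on 1 side of both control EB libraries, above them for Usp17lb, Zscan4d, Tmem92, Trim43a, Tfcp2l1, Tcl1, Dab2 and Nid1 and below them for Pim2, Dnmt3b, Kif1a and Scml2.

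Genes of the formative and primed epiblast were lower. Of 16 tested, 9 were lower and none higher (median -0.77), all 9 with both knockout libraries agreeing, and 7 were lower without knockout EB replicate 1 (4 to 7 over the 4 single EB libraries left out). Pim2, a serine/threonine kinase of cell survival, fell from 208 and 238 CPM in control EBs to 70.6 and 70.00 CPM in knockout EBs (-1.66 ± 0.13, adjusted p = 6.68e-05). Dnmt3b, the de novo DNA methyltransferase of the epiblast, fell from 1261 and 1388 to 782 and 786 CPM (-0.76 ± 0.08), and Fgf5, a growth factor of the same stage, from 58.02 and 64.3 to 32.2 and 30.97 CPM (-0.95 ± 0.13). Sall2, a zinc finger gene, fell from 72.1 and 79.9 to 31.1 and 35.4 CPM (-1.19 ± 0.12). For none of the 4 did the groups overlap, and in all 4 the control EB libraries lay above both control ESC libraries. Otx2, a homeobox factor of this stage, had 308 and 273 CPM in controls and 237 and 218 CPM in the knockout (-0.36 ± 0.10, adjusted p = 0.0633) and did not pass, although it did with the GC trend removed (-0.40, adjusted p = 0.00417), with DESeq2 (adjusted p = 0.036), without the low-count filter (adjusted p = 0.018) and with the EB libraries alone (adjusted p = 0.0162). T, a factor of the primitive streak, had 0.796 and 0.706 CPM in controls against 0.0753 and 0.152 CPM (-2.63 ± 0.85, adjusted p = 0.0982). None of 8 primitive streak genes was called by edgeR or DESeq2, and 3 had an unadjusted p below 0.05.

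Primitive endoderm genes were higher. Of 10 tested genes, the transcription factors of this lineage with Pdgfra and Dab2, 9 were higher (median 0.99), with 4 higher without knockout EB replicate 1 (2 to 4 over the 4 single EB libraries left out) at a median of 0.99. Dab2, an endocytic adaptor that marks this lineage, had 549 and 529 CPM in the control libraries and 1085 and 1203 CPM in the knockout libraries (1.09 ± 0.08, adjusted p = 6.16e-05). Pdgfra, the receptor of platelet-derived growth factor on primitive endoderm, went from 17.3 and 18.3 to 36.4 and 41.2 CPM (1.13 ± 0.12). The knockout libraries were close to each other for both genes and did not overlap the controls. Gata6 (1.06 ± 0.19), a factor that specifies the lineage, lost its call without either control EB library or knockout EB replicate 2 (adjusted p up to 0.123), and Hnf4a (1.12 ± 0.16), a factor that liver also expresses, without control EB replicate 1 (adjusted p = 0.0819). In bulk RNA, more cells of this lineage and more RNA per cell cannot be told apart.

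Genes of the basement membrane were higher as well. Of 18 genes of its proteins and their processing 10 were higher and none lower (median 0.60), and 9 without knockout EB replicate 1 (6 to 9 over the 4 single EB libraries left out). Lama1, which encodes the laminin alpha 1 chain, went from 299.7 and 325 to 668 and 727 CPM (1.16 ± 0.08, adjusted p = 6.16e-05), and Lamc1, the gamma 1 chain, from 508 and 541 to 840.0 and 897 CPM (0.73 ± 0.07). Lamb1, the beta 1 chain, went from 344 and 378 to 536 and 582 CPM (0.63 ± 0.08). All 3 chains of this laminin were thus higher in both knockout libraries than in both controls. Nid1, the nidogen that links laminin to collagen IV, went from 51.1 and 50.03 to 118 and 124 CPM (1.26 ± 0.09), and Sparc, a collagen-binding glycoprotein, from 885 and 905 to 1539 and 1803 CPM (0.90 ± 0.08).

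Genes of uptake and secretion in visceral endoderm were higher in 11 of 19 cases and lower in none (median 1.19), and 8 were higher without knockout EB replicate 1 (5 to 13 over the 4 single EB libraries left out). Cubn and Lrp2, the endocytic receptors cubilin and megalin, went from 562 and 596 to 1260.0 and 1381 CPM (1.19 ± 0.10) and from 733 and 823 to 1415 and 1607 CPM (0.96 ± 0.10). Dkk1, a secreted WNT antagonist, went from 5.04 and 7.29 to 17.8 and 20.1 CPM (1.63 ± 0.22), with the knockout libraries again near each other. Genes of this list that adult liver also expresses are given with both knockout libraries. Apoa1, an apolipoprotein, had 19.6 and 23.1 CPM in the control libraries and 112 and 41.1 CPM in the knockout libraries, and its 2 knockout libraries disagreed. Ttr, the thyroid hormone carrier transthyretin, had 39.1 and 50.8 CPM in controls and 147 and 97.6 CPM in the knockout (1.45 ± 0.20) and lost its call without control EB replicate 1 (adjusted p = 0.0737). Trf, transferrin, had 9.75 and 9.65 CPM in controls and 177 and 11.2 CPM in the knockout and did not pass (adjusted p = 0.0516). In these 3 genes replicate 1 was the higher knockout library. Afp, an albumin-like protein of yolk sac and fetal liver, had 12.3 and 12.6 CPM in controls and 9.49 and 12.1 CPM in the knockout and did not pass.

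Lysosomal genes, whose products digest endocytosed material, were higher in 13 of 30 cases and lower in none (median 0.31), and 8 were higher without knockout EB replicate 1 (5 to 8 over the 4 single EB libraries left out). The proteases Ctsl, Ctsh and Lgmn went from 684 and 711 to 1191 and 1299 CPM (0.84 ± 0.08), from 100.1 and 110.3 to 193 and 202 CPM (0.91 ± 0.10) and from 307 and 349 to 596 and 654 CPM (0.93 ± 0.09). In each of these genes the lower knockout library lay above the higher control. The tested members that were not called ranged down to -0.23 on the log2 scale.

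**Figure D4:**
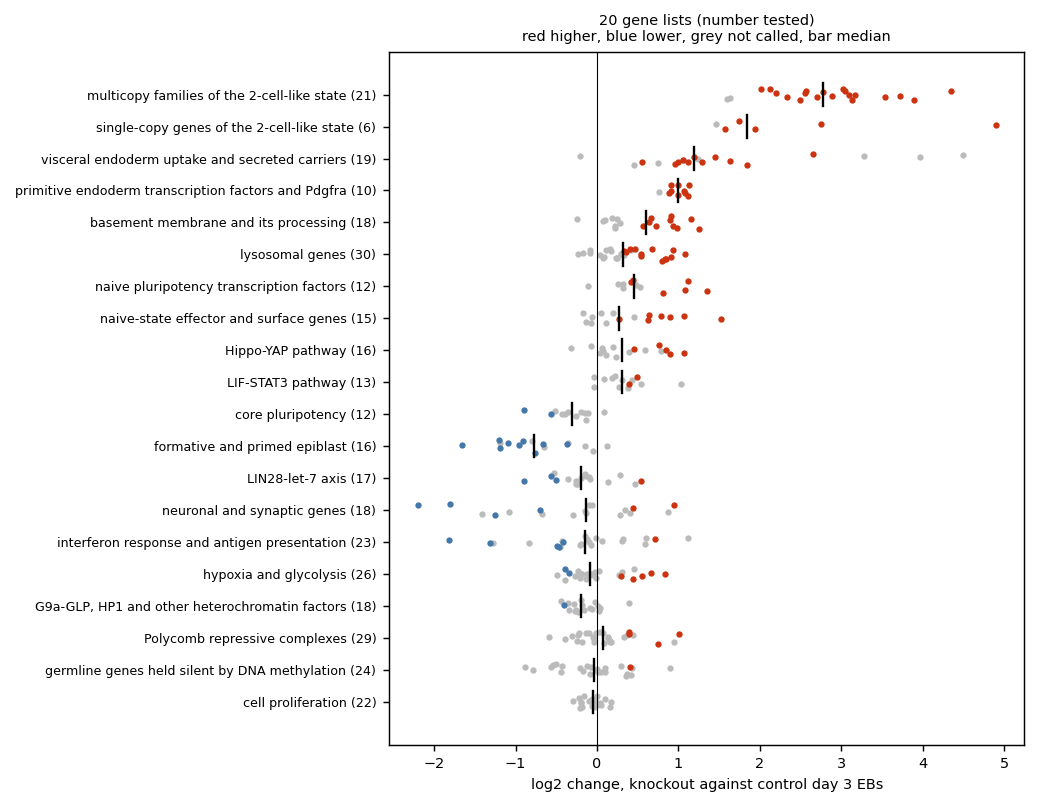
Log2 change in knockout against control day 3 EBs for the members of 20 gene lists, 1 point per tested gene, with the number tested beside each name. Red points were higher, blue points lower and grey points not called, and bars are list medians; the medians of the 2-cell-like, endoderm and basement membrane lists lie to the right of 0 and that of the formative list to the left.

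Among named genes that passed the test, Jph4 and Kif1a had the largest decreases. Kif1a, a kinesin that carries synaptic vesicles, fell from 78.8 and 79.99 CPM in control EBs to 13.9 and 14.6 CPM in knockout EBs (-2.48 ± 0.14, adjusted p = 2.71e-05). Jph4, a neuronal junctophilin, fell from 15.4 and 16.2 to 2.49 and 3.12 CPM (-2.50 ± 0.31). Nefl, the light neurofilament chain, fell from 22.3 and 21.8 to 9.26 and 9.28 CPM (-1.25 ± 0.17). The knockout libraries of these 3 genes were nearly equal and far below both controls. As a group, however, 18 neuronal and synaptic genes gave 4 lower members, among them Nefl, Gap43 and Uchl1, and 2 higher members (median -0.14). Fewer were called without knockout EB replicate 1, where the median was -0.29. The calls of Gap43 and Uchl1 were each lost without control EB replicate 1. That of Gap43 was also lost without control EB replicate 2 or knockout EB replicate 2, and that of Uchl1 without either knockout EB library. Of the higher members, Stmn2 (0.45 ± 0.10) lost its call without any 1 of the 4 EB or 2 control ESC libraries (adjusted p up to 0.196).

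Other genes that fell in both knockout libraries had various roles. Scml2, a Polycomb-related gene on the X chromosome, fell from 31.2 and 30.3 to 9.49 and 9.36 CPM (-1.71 ± 0.14, adjusted p = 9.27e-05). Mrc2, an endocytic collagen receptor, fell from 27.8 and 28.4 to 9.56 and 8.90 CPM (-1.60 ± 0.18), and Arrb1, beta-arrestin 1, from 53.9 and 50.2 to 19.8 and 17.8 CPM (-1.47 ± 0.12). Pla2g4a, the cytosolic phospholipase that releases arachidonic acid, fell from 9.68 and 10.4 to 2.18 and 2.74 CPM (-2.03 ± 0.27). None of these groups overlapped, and each call held with any 1 of the 8 libraries left out. Esrp1, a splicing regulator of epithelial cells, fell from 137 and 128 to 78.7 and 81.1 CPM (-0.73 ± 0.09), while the list of epithelial and mesenchymal genes that holds it gave 2 higher and 2 lower of 16.

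The signalling and metabolic lists are read beside the 6.8% of all tested genes that were called in either direction. Among 16 genes of the Hippo pathway, which restrains the co-activator YAP, 5 were higher and none lower (median 0.31; 1 to 3 higher with 1 EB library left out). Amot, an angiomotin that binds YAP, went from 338 and 362 to 576 and 609.6 CPM (0.76 ± 0.09). Pcsk6, a protease that activates NODAL precursors, went from 35.01 and 34.4 to 81.9 and 75.9 CPM (1.18 ± 0.13), the only higher gene of 18 in the NODAL list, beside 2 lower genes. The lists for FGF-ERK (1 higher and 3 lower of 19), WNT (2 and 2 of 25), LIF-STAT3 (2 and 0 of 13), BMP (1 and 0 of 20), NOTCH (0 and 1 of 15) and retinoic acid (2 and 0 of 15) are given by the same fit. With the GC trend of each library removed, FGF-ERK gave 3 higher and 7 lower, WNT 5 and 6, retinoic acid 5 and 1, BMP 2 and 3, and NODAL 2 and 4. Hypoxia and glycolysis gave 5 higher and 2 lower of 26, with the lower glycolytic genes Eno1 (-0.39 ± 0.07) and Ldha (-0.34 ± 0.06) losing their calls without either control EB library or knockout EB replicate 2, and Ldha also without knockout EB replicate 1 (adjusted p up to 0.081 and 0.119). Interferon response and antigen presentation gave 1 higher and 5 lower of 23, and 0 higher and 1 lower without knockout EB replicate 1. In that list Psmb8, an immunoproteasome subunit, fell from 20.8 and 17.1 to 5.65 and 5.10 CPM (-1.82 ± 0.25), a call lost without control EB replicate 1 (adjusted p = 0.07). By edgeR none of 22 proliferation genes and none of 21 cholesterol synthesis genes was called (6 with an unadjusted p below 0.05 in each list, and 0 and 1 called by DESeq2), and 1 of 83 ribosomal protein genes and 1 of 78 genes of oxidative phosphorylation was higher.

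Of 18 genes of H3K9 methylation and heterochromatin, Cbx1 alone was lower (-0.41 ± 0.10), and none was higher. Of 29 Polycomb genes 4 were higher and none lower, namely Rbbp7, Ezh1, Bmi1 and Phf19. The calls of all 5 were lost without any 1 of the 4 EB or 2 control ESC libraries (adjusted p up to 0.308). With the GC trend of each library removed, 7 heterochromatin genes, 6 proliferation genes and 12 formative genes were lower. In that fit 5 Polycomb genes were higher and 5 lower. Germline genes held silent by DNA methylation gave 1 higher of 24, and 16 Hox genes and 15 clustered protocadherin genes gave no call by edgeR or DESeq2 (0 and 2 with an unadjusted p below 0.05). Genes named as zinc finger proteins, of which Zfp462 is one, gave 5 higher and 6 lower of 371.

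The EB change was then set beside the knockout change in ESCs, which shares no library with it. In ESCs 2483 genes were called (14.5%), 1421 higher (8.3%) and 1062 lower (6.2%). Of the genes higher in knockout EBs, 540 were also higher in knockout ESCs, which is 66.3% of the EB list and 38.0% of the ESC list. Of the lower genes 194 were lower in both, 55.4% of the EB list and 18.3% of the ESC list. The ESC test did not pass for 265 of the higher and 149 of the lower EB genes. The difference between the EB and ESC changes was tested for every gene and called for 237 (1.38%), 127 with the more positive change in EBs (0.742%) and 110 with the more negative (0.642%). Among genes higher in knockout EBs 82 had such a difference, 40 with the more positive change in EBs and 42 with the more positive change in ESCs. No call of a named gene held with every 1 of the 8 libraries left out: there were 0 calls in all without either control ESC library or without control EB replicate 2, where 1566, 1391 and 2137 genes had an unadjusted p below 0.05 (2136 with all libraries), and 22, 20 and 104 calls without control EB replicate 1, knockout EB replicate 1 and knockout EB replicate 2.

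Called differences were found for 3 of 10 primitive endoderm genes, 3 of 19 visceral endoderm genes and 11 of 18 basement membrane genes. Dab2 changed by 1.09 ± 0.08 in EBs and by 2.09 ± 0.08 in ESCs, where it went from 190.1 and 193 to 804 and 831 CPM, and the difference was -1.01 ± 0.11 (adjusted p = 0.00389). The difference for Cubn was -1.14 ± 0.13 (adjusted p = 0.00573), and for Sparc -1.06 ± 0.11 (adjusted p = 0.00389), in each case with the larger increase in ESCs. Nid1 went the other way, with changes of 1.26 ± 0.09 in EBs and 0.25 ± 0.09 in ESCs (difference 1.01 ± 0.12, adjusted p = 0.00676). The control levels differed between the states as well, with Dab2 at 549 and 529 CPM in control EBs. The 2-cell-like lists had no called difference in 27 tested genes by edgeR (9 with an unadjusted p below 0.05, and 1 called by DESeq2), with medians of 2.77 in EBs and 2.08 in ESCs for the multicopy families.

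Naive and formative genes included calls in opposite directions. The formative list itself was mostly lower in knockout ESCs too, with 2 higher and 8 lower (median -0.60), so Dnmt3b and Fgf5 below do not stand for it. In ESCs the naive factors gave 1 higher and 6 lower (median -0.42). The naive effector and surface genes gave 1 higher and 6 lower as well (median -0.20). In all 16 genes were called both in EBs and in ESCs with opposite signs, 9 of them higher in EBs (Tfcp2l1, Trh, Mcf2, Ngfr, Zfp42, Dnajc6, Cobl, Tdh and Gjc1) and 7 lower (Dnmt3b, Pdpn, Kcnk1, Fgf5, Pea15a, Unc5b and C530008M17Rik). These 16 were picked out after their values were seen. Tfcp2l1 changed by 1.09 ± 0.10 in EBs and -0.35 ± 0.09 in ESCs (difference 1.43 ± 0.13, adjusted p = 0.00245). Trh, the precursor of thyrotropin-releasing hormone, went from 280.3 and 279.8 to 497 and 519 CPM in EBs and from 334 and 348 to 229 and 261 CPM in ESCs. Dnmt3b had 187 and 204 CPM in control ESCs and 275 and 252 CPM in knockout ESCs, so that it was higher than control in ESCs (0.43 ± 0.08) and lower in EBs. Fgf5 went from 1.55 and 1.84 to 3.06 and 2.69 CPM in ESCs (0.75 ± 0.22, adjusted p = 0.0426 in edgeR), a low level near the threshold. The ESC calls of Tfcp2l1, Trh, Dnmt3b and Fgf5 were not followed gene by gene with 1 library left out. The EB calls of these 4 held with any 1 of the 8 libraries left out, while each of the other 12 lost its EB call in at least 1 such fit (adjusted p up to 0.335).

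**Figure D5:**
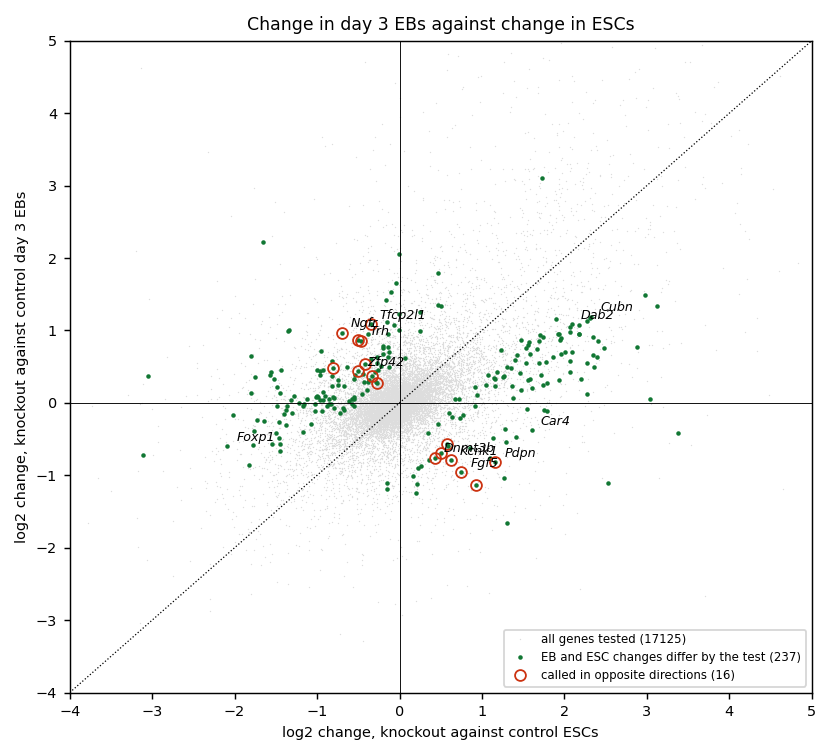
Log2 change in knockout against control EBs (vertical) against that in ESCs (horizontal) for the genes tested, with axes from -4 to 5 that leave out 86 genes. Green points are the 237 genes whose EB and ESC changes differ by the test, red circles the 16 genes called in opposite directions, and the dotted line marks equal change; Dab2 and Cubn lie below it on the right.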

How the data were processed

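RNA sequencing of 8 mouse libraries, 2 for each of 4 groups, gave the deposited table of unnormalized read counts, whole numbers per gene and library, per the file headers. HISAT2, featureCounts, DESeq2 and the build mm10 are named in the submitters' processing notes, with no settings. No source used here gives the strand setting or the handling of reads that match several places, so a gene and its antisense partner cannot be told apart. Groups were taken from the labels. Library totals ranged from 12119763 to 16228426 counts, which limits genes of few counts most.

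Genes that passed filterByExpr (17125) were scaled with TMM factors and fitted with edgeR's quasi-likelihood test, with 1 mean per group over all 8 libraries and a common biological coefficient of variation of 0.132. Benjamini-Hochberg adjustment covered all 17125 genes, and calls were made below 0.05. Contrasted were knockout and control in EBs, the same in ESCs, and the difference between both effects. CPM and log2 changes (± SE, n = 2 against 2) come from this fit, with a prior count of 2 for the agreement rule. Computation used edgeR 4.0.16 with limma 3.58.1 in R 4.3.3, with DESeq2 1.42.0 for an alternative, and the fit was checked on simulated data. Names came from GENCODE M21 (54349 IDs matched by version) and sequences from RefSeq.

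The genes, lists and rules were chosen with earlier results of these data known. Named were Zfp462, the 25 highest and 25 lowest agreeing calls with at least 5 CPM and a gene name, up to 4 agreeing calls with the smallest adjusted p per list, 8 of each sign for the difference contrast, and Pou5f1, Sox2, Nanog, Fgf5, Otx2, T and Gata6; not every gene this rule picks is reported. Genes named outside this rule (Afp, Apoa1, Bhmt, Trf, Zscan4f, the mitochondrial ribosomal RNAs, Hist1h1c and genes called in opposite directions) were chosen after their values were seen. Alternatives were another normalization, filter, tool, replicate block or choice of libraries, removal of each library's GC trend, each library left out and, added after seeing the data, crossed replicate numbers.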

Additional observations from a re-analysis of the deposited data

Results flagged for a closer look

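For 48 genes described here the knockout effect in EBs differed from that in ESCs by the test of the difference itself, a called interaction term in edgeR (1.38% of all genes tested). All values are the EB log2 change minus the ESC log2 change, 21 of them above and 27 below 0, and none of these calls held with every 1 of the 8 libraries left out. Above 0 were the naive-state genes Tfcp2l1 (1.43), Tcl1 (1.63), Jam2 (0.99), Zfp42 (0.94) and Zfp57 (0.56). Nid1 (1.01), a basement membrane gene, was above 0 too. The others above 0 were Slc15a1 (1.69), a peptide transporter, Ngfr (1.67), a neurotrophin receptor, Foxp1 (1.49), Dnajc6 (1.37), Notum (1.33), Trh (1.33), Mcf2 (1.3), Bicral (1.08), Gfpt2 (0.99), Ifitm1 (0.98), Cobl (0.95), Pfkp (0.82), Stmn2 (0.70), Gjc1 (0.70) and Tdh (0.55).

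Below 0 were primitive and visceral endoderm genes, Pdgfra (-1.15), Cubn (-1.14), Dab2 (-1.01) and Lrp2 (-0.98). Genes of the basement membrane or of collagen processing below 0 were Lamb1 (-1.23), P4ha2 (-1.21), Sparc (-1.06), P4ha1 (-0.91), Lama1 (-0.74) and Lamc1 (-0.50). The lysosomal proteases below 0 were Ctsh (-0.83), Lgmn (-0.78) and Ctsl (-0.73). The formative genes Fgf5 (-1.70), Dnmt3b (-1.19) and Sall2 (-1.04) were below 0 as well. The others below 0 were C530008M17Rik (-2.05), Pdpn (-1.98), Car4 (-1.98), Nefl (-1.45), Kcnk1 (-1.41), Srgn (-1.22), Unc5b (-1.20), Rhox5 (-1.14), Pea15a (-1.14), Amot (-0.77) and Krt18 (-0.76).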

How the results depend on the processing

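The EB calls (814 higher, 350 lower) stayed within 1.5 times under median-of-ratios factors, library totals, a mean of at least 1 CPM and DESeq2. Without the low-count filter there were 1442 higher and 652 lower (641 lower with both knockout libraries agreeing) and 704 called EB-ESC differences. With the GC trend removed there were 1347 higher and 1292 lower, so that 51% of calls were higher in place of 69.9%, with 1256 and 1287 agreeing, 3942 calls in ESCs and 725 differences, and Gfpt2 turned from an uncalled increase to -0.027. With only the libraries of the groups compared there were 1449 and 1271 (53.3% higher), 1415 and 1267 agreeing, and 1358 calls in ESCs. A log2 change of at least 1 left 452 and 102, 420 and 100 agreeing, 1083 calls in ESCs and 141 differences, and DESeq2 gave 393 differences.

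Leaving out 1 of the 8 libraries gave 196 to 1721 higher and 40 to 1466 lower genes in EBs, 196 to 1601 and 40 to 1463 agreeing, 756 to 4729 calls in ESCs and 0 to 2040 differences, and moved Zfp462 between -0.59 and -0.35. Both ends of the EB ranges came from leaving out control EB replicate 1 and a knockout ESC library, the group with the widest replicate spread. The replicate number as a block gave 694 higher and 273 lower genes (678 and 265 of the main calls), 674 and 270 agreeing, 2281 calls in ESCs, 173 differences and -0.47 for Zfp462, and 13 of 169 named genes lost their calls. The numbers did not pair the samples: over 11328 genes the correlation of same-numbered deviations was -0.238 between control and knockout EBs and -0.0571 to 0.0373 between other groups, and crossed EB numbers, added after seeing the data, gave 753 and 318. Depth limits genes below 1 CPM in control EBs. That none of them was called lower also follows from sorting them by the control level.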

Other observations

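Imprinted genes, expressed from 1 parental copy, gave 4 higher and 4 lower of 29 (median -0.03). Sfmbt2, a Polycomb-related imprinted gene of extraembryonic tissue, went from 21.9 and 20.7 CPM in control EBs to 50.1 and 54.8 CPM in knockout EBs (1.3 ± 0.12), and Peg10, a retrotransposon-derived placental gene, from 846 and 836 to 1209 and 1369.8 CPM (0.62 ± 0.08), while Phlda2 fell from 11.4 and 14.5 to 4.97 and 6.09 CPM (-1.23 ± 0.21), a call lost without control EB replicate 2 or knockout EB replicate 1 (adjusted p up to 0.0764). Slc6a8, the creatine transporter, went from 91.9 and 85.9 to 225 and 237 CPM (1.38 ± 0.15). Apod, a lipocalin, went from 0.729 and 1.18 to 7.98 and 7.38 CPM (3.02 ± 0.36) and Enpep, an aminopeptidase, from 1.66 and 1.88 to 10.8 and 7.84 CPM (2.40 ± 0.29). The vomeronasal receptor gene Vmn1r88 had 0.597 and 0.157 CPM in control EBs against 4.59 and 4.64 CPM in knockout EBs (3.53 ± 0.47). Of its 50-base windows 17.9% also occur in another gene, so shared reads may enter this value. All 5 of Sfmbt2, Peg10, Slc6a8, Apod and Vmn1r88 had both knockout libraries above both controls.

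On the X chromosome 37 of 637 tested genes were higher (5.81%) and 34 lower (5.34%), against 4.75% and 2.04% of all genes. Unprocessed pseudogenes were higher in 14 of 99 cases (14.1%). Pseudogene copies can share reads with other genes: 87.6% of the windows of Zscan4-ps2 and 72.5% of those of Zscan4-ps3 also occur in another gene. The part of shared reads in this share was not tested. The mitochondrial ribosomal RNA mt-Rnr1 had 262.3 and 259.0 CPM in control EBs and 497.0 and 486.1 CPM in knockout EBs (0.92, adjusted p = 0.000348), and mt-Rnr2 had 329.9 and 316.6 against 606.5 and 579.1 CPM (0.87, adjusted p = 0.00431). Of 32 histone genes named Hist, 1 was higher (Hist1h1c, 1.00, adjusted p = 0.0191) and none lower, with a median of 0.53. The part of poly(A) selection in these values was not tested.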
